A study of Melitaea cinxia with 174 samples.

Results

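The Glanville fritillary butterfly, Melitaea cinxia, occurs in the Baltic region both in networks of small dry meadows and in large unbroken grasslands. The thorax of single butterflies from 4 regional populations was profiled by RNA-seq, with 1 library per individual. This account covers the libraries labelled Male, 97 of the 174 libraries of the series. The question was which genes differed in level between males from fragmented and males from continuous landscapes, over all expressed genes.

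The fragmented landscapes were represented by 26 males from the Åland Islands (ÅL) and 9 males from Uppland (UP). The continuous landscapes were represented by 35 males from Saaremaa (SA) and 27 males from Öland (ÖL). All were wild-derived: larvae were collected in diapause, overwintered and reared singly to adults in a common garden, and a single larva was sequenced per family. No butterfly was flown or treated before sampling. The study set aside a few ÖL and UP butterflies as genetic outliers, some of which appeared to have switched labels. The labels used here do not name them, so any that are male remain in the groups under the population of their label. Each landscape type had only 2 populations, so landscape type cannot be told apart from the other ways in which those populations differ, and the p-values measure the spread between males within populations. The landscape difference was the mean of the ÅL and UP means minus the mean of the SA and ÖL means, so that UP with 9 males weighed as much as ÅL with 26.

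The thorax holds the flight muscles together with epidermis, fat body, nerve and blood cells, so that a library is a mixture of these tissues. Flight muscle depends on mitochondrial ATP production. Fat body makes storage proteins such as the hexamerins and, when insects meet microbes, antimicrobial peptides. Epidermis makes cuticular proteins, and moulting hormones (ecdysteroids) govern when that happens. A level in a whole thorax can differ because a tissue is larger or because its cells hold more of an RNA, and these cannot be told apart in such libraries.

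The males' libraries held between 442717 and 6582515 counts, with a median of 2531199. The 10 most abundant genes took between 16 and 48.9% of the counts. The scaling factor of the trimmed mean of M-values (TMM), which falls when a few genes take much of a library, lay between 0.414 and 1.22 in ÅL and between 0.947 and 1.31 in UP males, against 0.842 to 1.49 in SA and 0.763 to 1.2 in ÖL males. In 11 ÅL males it was below the lowest factor of the other populations. No difference between landscape types in depth or in these composition measures passed the threshold (permutation tests adjusted over 3 measures, P = 0.167 for total count, 0.46 for the share of the 10 most abundant genes and 0.167 for the TMM factor). In 4 males most of the 50 genes used to check the sex label lay on the female side. Of these, ÖL male 11 had 46 such genes, SA male 23 and UP male 2 had 30 each, and ÅL male 14 had 29. All 4 were kept. Without them 1540 genes differed between landscape types (922 higher and 618 lower), against 1780 with them. No pair of males of a population had the same counts within sampling noise (1307 pairs, with a chi-square of at least 11.2 per degree of freedom).

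Of 16667 gene models, 16330 had a read in a male and 7954 were abundant enough to be tested. At FDR<0.05 (edgeR quasi-likelihood test), 1780 genes, 22.4% of those tested, differed between landscape types. Males from fragmented landscapes had 1065 genes higher (13.4% of those tested) and 715 lower (8.99%). The split depended on the scaling: with library size alone in place of TMM factors, 641 genes were higher and 842 lower, and the median log2 fold change of all genes moved to -0.084, against 0.016. Directions of genes with small fold changes hold relative to that shift.

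Most differences were small. Only 467 of the 1780 genes had an absolute log2 fold change above 1, 293 of them higher and 174 lower in males from fragmented landscapes. Above a log2 fold change of 2 there were 50 higher and 29 lower genes. The plot of all genes shows that the largest differences belonged to genes of low average level.

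**Figure D1:**
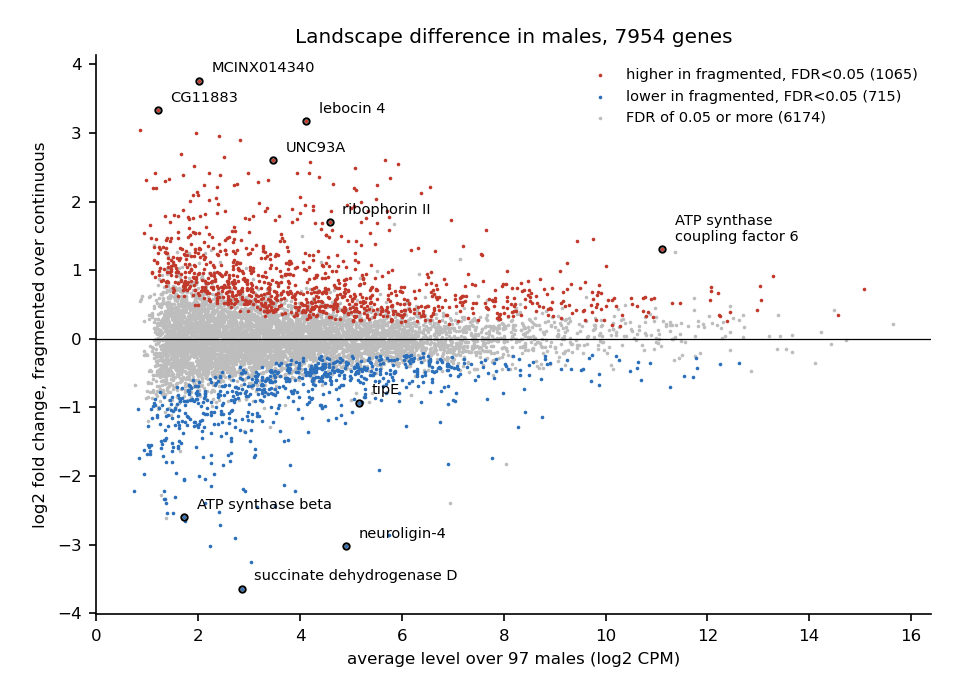
Each point is one of 7954 genes, with its average level over 97 males (log2 CPM) on the horizontal axis and its log2 fold change, fragmented over continuous landscapes, on the vertical axis. Red points are the 1065 genes higher and blue points the 715 genes lower in males from fragmented landscapes at FDR<0.05, and 10 genes are ringed and named.

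The 4 populations did not divide simply by landscape type. ÅL males differed from the 2 continuous populations at 2945 genes (37% of those tested, 1649 or 20.7% higher and 1296 or 16.3% lower), and UP males differed from the same continuous males at 393 genes (4.94%, 304 or 3.82% higher and 89 or 1.12% lower). These comparisons share the SA and ÖL males and differ in numbers, since UP had 9 males. SA and ÖL males, both from continuous landscapes, differed at 2430 genes (30.6%, 1120 or 14.1% higher and 1310 or 16.5% lower in SA). ÅL and UP males, both from fragmented landscapes, differed at 434 genes (5.46%, 242 or 3.04% higher and 192 or 2.41% lower in ÅL). Without UP male 2, which was among those against the sex check, the count for UP against the continuous populations was 219.

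SA stood at the far end of the scale for most genes that differed by landscape type. Of the 1065 genes higher in fragmented landscapes, 796 had their lowest population mean in SA and 247 in ÖL, and 587 had their highest mean in ÅL and 439 in UP. Of the 715 lower genes, 549 had their highest mean in SA and 161 in ÖL, and 517 had their lowest mean in ÅL and 184 in UP. In 1299 of the 1780 genes both fragmented means lay on the called side of both continuous means. Such an order in either direction held for 2838 of all 7954 genes (35.7%). The calls were made on the contrast of these populations, so a larger share among called genes follows in part from the calling. Without SA the test found 712 genes (9.48% of those tested), and without ÅL 436 (5.67%). Without UP it found 2581 genes (40.4%) and without ÖL 2549 (34.2%).

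Some genes had reads in most males from fragmented landscapes and medians of 0 in both continuous populations. MCINX014340, which codes for an uncharacterized protein, had the largest log2 fold change. It lay between 0 and 46.4 CPM (counts scaled to a library of 1000000, median 5.6) in ÅL males and between 0 and 15.9 CPM (median 8.92) in UP males, against 0 to 2.09 CPM (median 0) in SA males and 0 to 9.38 CPM (median 0) in ÖL males. It had no read in 4 ÅL males and 1 UP male, against 29 of 35 SA and 14 of 27 ÖL males, and the ranges overlapped. Its log2 fold change was 3.77 ± 0.43 (SE, FDR = 4.5e-11), 13.6-fold. The log2 fold change against the continuous mean was 3.85 in ÅL males and 3.68 in UP males.

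MCINX007393, matched to the Drosophila gene CG11883, followed the same pattern. It lay between 0 and 12.3 CPM (median 3.36) in ÅL males and between 0 and 9.66 CPM (median 1.15) in UP males, against 0 to 3.85 CPM in SA and 0 to 2.68 CPM in ÖL males, where both medians were 0. It had no read in 5 ÅL and 3 UP males, against 22 SA and 17 ÖL males. The log2 fold change was 3.33 ± 0.38 (SE, FDR = 3.39e-11).

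MCINX016245 is a putative UNC93A protein, of a family named for a nematode protein that regulates a muscle potassium channel. It had the smallest FDR of all genes in this comparison. Its levels were 0 to 94 CPM (median 7.12) in ÅL males and 1.26 to 53.1 CPM (median 22.4) in UP males, against 0.973 to 8.19 CPM (median 2.68) in SA males and 1.13 to 11.7 CPM (median 3.52) in ÖL males. More than 10 CPM were reached by 10 ÅL and 6 UP males, against 0 SA males and 1 ÖL male. The log2 fold change was 2.6 ± 0.26 (SE, FDR = 1.54e-12), and neither ÅL and UP (log2 fold change -0.31, FDR = 0.745) nor SA and ÖL (-0.35, FDR = 0.465) differed at the threshold.

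MCINX000352 and MCINX003842 have no description. MCINX000352 was 3 ± 0.42 higher on the log2 scale (SE, FDR = 4.01e-08), with medians of 1.42 CPM in ÅL and 7.52 CPM in UP males, against 0.282 CPM in SA and 0.405 CPM in ÖL males. MCINX003842 was 2.95 higher on the log2 scale (FDR = 2.01e-05), with 1 male holding most of the CPM in ÅL (male 26, 71.1%), UP (male 6, 77.9%) and ÖL (male 7, 58.6%). Its medians were 0 CPM in ÅL and 0.948 CPM in UP males, against 0 CPM in SA and 0.435 CPM in ÖL males. It did not pass the permutation test on log2 levels (FDR = 0.0716). Its log2 fold change was 2.2 without ÅL male 26, 1.99 without UP male 6 and 3.66 without ÖL male 7.

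The tyramine receptor MCINX002603, a receptor for a biogenic amine, was higher in UP than in ÅL males. It lay between 0 and 8.21 CPM (median 0) in ÅL males and between 0.236 and 17.7 CPM (median 7.27) in UP males, against 0 to 6.42 CPM in SA and 0 to 7.69 CPM in ÖL males, with medians of 0 in both. All 9 UP males had reads of it, while 14 ÅL, 25 SA and 14 ÖL males had none. The landscape difference was 2.42 ± 0.45 (log2, SE, FDR = 2.34e-05), and the log2 fold change of ÅL over UP was -2.46 (FDR = 0.0113). Over the continuous mean it was 1.19 in ÅL (FDR = 0.049) and 3.65 in UP males (FDR = 5.65e-07). SA male 31 held 56.8% of the CPM of SA, and without it the landscape difference was 2.67.

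Odorant receptor 31 (MCINX006293) was 2.6 ± 0.5 higher on the log2 scale (SE, FDR = 4.61e-05). Its levels were 0 to 434 CPM (median 84) in ÅL and 0.691 to 133 CPM (median 22.6) in UP males, against 0 to 18.7 CPM (median 1.23) in SA and 0 to 156 CPM (median 1.31) in ÖL males. More than 10 CPM were found in 17 ÅL and 6 UP males, against 7 SA and 10 ÖL males, and the log2 fold change of SA over ÖL was -3.32 (FDR = 2.25e-05). The difference did not pass the threshold without SA (log2 fold change 0.94, FDR = 0.417) or without ÅL (1.8, FDR = 0.103). The summed level of 8 sensory or synaptic marker genes, this receptor among them, lay between 65.9 and 1050 CPM (median 205) in males from fragmented landscapes, against 35.1 to 417 CPM (median 94.1) in males from continuous landscapes. All 8 were chosen by the study as landscape genes on these samples, so the direction of the sum is not independent of that choice. Of these 8 genes 5 were tested and 2 were higher (40% called, against 22.4% of all tested genes). Of the 1147 tested genes with a description 756 were called, a larger share. The part of sensory or nerve content in the result was not tested.

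Other strong differences were found in genes that every male expressed. The ATP synthase coupling factor 6 gene MCINX008601, which codes for part of the stalk of mitochondrial ATP synthase, had 1070 to 8340 CPM (median 4230) in ÅL and 770 to 4560 CPM (median 2250) in UP males, against 440 to 3020 CPM (median 1010) in SA and 388 to 3470 CPM (median 1270) in ÖL males. The ranges overlapped, but both fragmented medians were above both continuous ones, and the log2 fold change was 1.31 ± 0.15 (SE, FDR = 3.46e-11). Ribophorin II (MCINX004932), a subunit of the enzyme that adds sugar chains to newly made secreted proteins, had medians of 46.8 CPM in ÅL and 22.4 CPM in UP males, against 8.03 CPM in SA and 8.69 CPM in ÖL males. Its log2 fold change was 1.7 ± 0.18 (SE, FDR = 1.67e-12). ÅL males exceeded UP males as well (log2 fold change 1.04, FDR = 0.0362).

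The putative zinc finger gene MCINX002038 had narrow ranges in both fragmented populations. It lay between 6.69 and 26.1 CPM (median 13.2) in ÅL and between 8.32 and 20 CPM (median 13.2) in UP males, against 1.14 to 8.56 CPM (median 4.05) in SA and 1.23 to 28.7 CPM (median 7.53) in ÖL males. More than 10 CPM were found in 22 of 26 ÅL and 7 of 9 UP males, against 0 of 35 SA and 9 of 27 ÖL males. The log2 fold change was 1.18 ± 0.13 (SE, FDR = 2.43e-11). MCINX001696, matched to CG6287, was 1.69 ± 0.18 higher (log2, SE, FDR = 3.07e-12), with medians of 64.1 CPM in ÅL and 41.7 CPM in UP males, against 9.32 CPM in SA and 38.5 CPM in ÖL males. For this gene ÖL lay close to UP, and the log2 fold change of SA over ÖL was -1.74 (FDR = 1.62e-10).

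**Figure D2:**
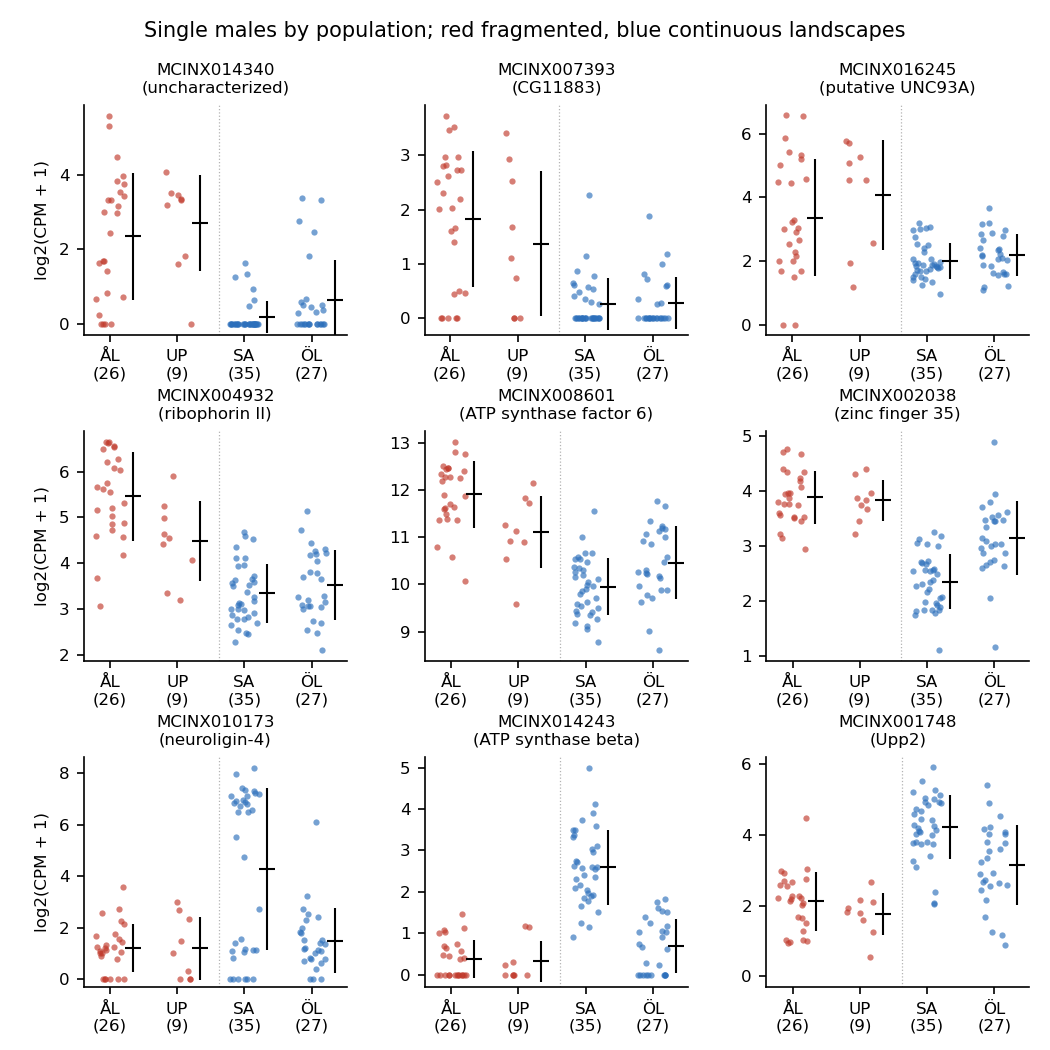
Levels of 9 genes in single males, as log2(CPM + 1) on the vertical axes, by population with the number of males in brackets; red points are ÅL and UP males of fragmented and blue points SA and ÖL males of continuous landscapes, and black bars give the mean and SD. The first 6 genes were higher and the last 3 lower in males from fragmented landscapes, and the SA males fall into a high and a low set for neuroligin-4.

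Among the genes lower in fragmented landscapes, most of the large differences came from levels that were high in SA males or in a minority of males. Neuroligin-4 (MCINX010173) belongs to a family of adhesion proteins of synapses. It lay between 0 and 10.8 CPM (median 1.25) in ÅL and between 0 and 7.04 CPM (median 1) in UP males, against 0 to 292 CPM (median 89.5) in SA and 0 to 67.9 CPM (median 1.31) in ÖL males. It exceeded 10 CPM in 1 ÅL and 0 UP males, against 20 of 35 SA males and 1 ÖL male, ÖL male 26, which held 56.8% of that population's CPM and without which the log2 fold change was -2.62. The landscape difference was -3.02 ± 0.58 (log2, SE, FDR = 5.09e-05), and it did not pass the threshold without SA (log2 fold change -0.94, FDR = 0.25).

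The eIF2 alpha kinase PEK gene (MCINX016132), a kinase that slows translation under stress of the endoplasmic reticulum, showed the same restriction to SA. It was above 10 CPM in 0 ÅL and 0 UP males, against 15 of 35 SA and 0 ÖL males. The highest SA male had 143 CPM, against 6.06 CPM for the highest ÖL male, and the highest fragmented males had 5.83 CPM in ÅL and 2.03 CPM in UP. In ÅL, male 13 held 56.3% of the CPM, and the log2 fold change was -3.21 without it. The landscape difference was -2.9 ± 0.6 (log2, SE, FDR = 0.000154), and SA exceeded ÖL by 4.12 (log2 fold change, FDR = 1.53e-08).

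The gene described as ATP synthase subunit beta (MCINX014243) was at low levels everywhere outside SA. It lay between 0 and 1.76 CPM (median 0.147) in ÅL and between 0 and 1.26 CPM (median 0) in UP males, against 0.871 to 30.8 CPM (median 4.91) in SA and 0 to 2.53 CPM (median 0.592) in ÖL males. All 35 SA males had reads of it, while 13 ÅL, 5 UP and 10 ÖL males had none. The log2 fold change was -2.6 ± 0.38 (SE, FDR = 8.73e-08). Which of the gene copies the reads came from was not examined.

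Rap1 GTPase-activating protein 1 (MCINX011667), an inhibitor of a small GTPase, had medians of 0 CPM in ÅL and 0.406 CPM in UP males, against 5.96 CPM in SA and 1.04 CPM in ÖL males. Its log2 fold change was -2.66 ± 0.4 (SE, FDR = 2.42e-07). MCINX002622, described as RE17505p, had no read in 18 ÅL and 6 UP males, against 4 SA and 6 ÖL males. Its log2 fold change was -3.02 ± 0.52 (SE, FDR = 5.71e-06), and -3.7 without UP male 3, which held 71.1% of the CPM of UP. MCINX003690, matched to CG13618, had medians of 0 CPM in ÅL and 0.47 CPM in UP males, against 3.89 CPM in SA and 1.18 CPM in ÖL males (log2 fold change -2.39, FDR = 8.95e-05).

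The gene described as a fragment of succinate dehydrogenase subunit D (MCINX005298), part of respiratory complex II, had the largest fold change in this direction. It lay between 0 and 10.8 CPM in ÅL and between 0 and 3.45 CPM in UP males, with medians of 0 in both, against 0 to 97.1 CPM (median 1.71) in SA and 0 to 77.8 CPM (median 1.69) in ÖL males. Only 9 SA and 4 ÖL males exceeded 10 CPM, as did 1 ÅL and 0 UP males. The log2 fold change was -3.64 ± 0.7 (SE, FDR = 4.05e-05), and -4.35 without UP male 1, which held 68.7% of the CPM of UP. The gene described as the probable 24 kDa subunit of complex I (MCINX005301) had medians of 0 CPM in ÅL and 0.236 CPM in UP males, against 1.47 CPM in SA and 4.46 CPM in ÖL males. The landscape difference was -3.25 ± 0.67 (log2, SE, FDR = 0.00014). In ÅL, male 26 held 73.3% of its CPM and in UP, male 8 held 63.8%. The landscape difference in log2 was -3.98 without the ÅL and -3.75 without the UP male. Both genes were at low levels, and whether other gene models code for these subunits was not examined.

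MCINX000348, which has no description, had a log2 fold change of -2.71 ± 0.61 (SE, FDR = 0.000504) although its population medians lay between 0.632 and 1.56 CPM. In SA, male 27 held 76.1% of the CPM, with 228 CPM, and without it the log2 fold change was -1.69 (FDR = 0.00361). The permutation test on log2 levels did not pass the threshold for this gene (FDR = 0.0941).

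Upp2 (MCINX001748), named after an enzyme that breaks down uridine, and tipE (MCINX002975), which in Drosophila is an auxiliary subunit of the voltage-gated sodium channel, were lower without depending on few males. Upp2 lay between 0.934 and 21.2 CPM (median 3.57) in ÅL and between 0.47 and 5.35 CPM (median 2.53) in UP males, against 3.1 to 59.9 CPM (median 18.2) in SA and 0.844 to 41.3 CPM (median 8.35) in ÖL males. On the log2 scale the difference was -2.14 ± 0.27 (SE, FDR = 9.5e-10). tipE lay between 3.89 and 55.5 CPM (median 20.2) in ÅL and between 9.91 and 34.4 CPM (median 23) in UP males, against 24.7 to 81 CPM (median 46.1) in SA and 16.7 to 60.4 CPM (median 34.6) in ÖL males. The fitted log2 fold change was -0.93 ± 0.14 (SE, FDR = 1.97e-07), and all 4 ranges overlapped.

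The 39 genes that had changed after a flight treatment in a separate experiment on other butterflies included 8 antimicrobial peptides. All 8 had reads, 6 were abundant enough to be tested and all 6 were called higher in males from fragmented landscapes, with a median log2 fold change of 2.03, against 0.016 for all tested genes. As 22.4% of tested genes were called, this share was above the background. All 6 were called without UP male 2, without the 11 ÅL males of low TMM factor and without the males against the sex check. The calls of defensin-5, gloverin 1 and the merged cecropin gene were lost without ÅL male 17, and that of defensin-1 without UP male 6. Gloverin 1 also lost its call without UP male 3 (log2 fold change 1.365, FDR = 0.0597). Lebocin 4 (MCINX011164), known from silkworm as a proline-rich antibacterial peptide, lay between 0 and 949 CPM (median 2) in ÅL and between 0.632 and 91.9 CPM (median 1.41) in UP males, against 0 to 106 CPM (median 0.564) in SA and 0 to 17.3 CPM (median 0.823) in ÖL males. The highest male held 70.9% of the CPM in ÅL (male 17), 77.4% in UP (male 2) and 78.3% in SA (male 17). Its landscape difference was 3.17 ± 0.56 (log2, SE, FDR = 1.01e-05), and the value was 2.25 without ÅL male 17, 2.19 without UP male 2 and 4.2 without SA male 17.

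Cecropin 3 (MCINX012359), a membrane-disrupting peptide, was high in more males, mainly those of ÅL. It lay between 4.69 and 4010 CPM (median 32.1) in ÅL and between 5.65 and 131 CPM (median 11.1) in UP males, against 0 to 324 CPM (median 3.68) in SA and 0.844 to 411 CPM (median 7.89) in ÖL males. The order of the medians held for more than the highest males: over 10 CPM were found in 20 of 26 ÅL and 5 of 9 UP males, against 3 of 35 SA and 13 of 27 ÖL males. The log2 difference was 2.22 ± 0.51 (SE, FDR = 0.000573). ÅL exceeded the continuous mean by 3.73 (log2 fold change, FDR = 7.06e-09), while UP had a log2 fold change of 0.705 (FDR = 0.72). The landscape call was lost without ÅL (log2 fold change 0.69, FDR = 0.646) and without SA (1.67, FDR = 0.0965). ÅL male 17 held 53.9% and SA male 17 held 64.9% of the CPM of their populations, and the log2 fold change was 1.68 without the ÅL and 2.97 without the SA male.

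Defensin-5 (MCINX000474) had medians of 17.2 CPM in ÅL and 11.4 CPM in UP males, against 5.07 CPM in SA and 5.02 CPM in ÖL males, with a log2 fold change of 1.86 ± 0.44 (SE, FDR = 0.00101). ÅL male 17 alone had 3080 CPM, 73.9% of its population, and without it the difference did not pass the threshold (log2 fold change 0.91, FDR = 0.069). Defensin-1 (MCINX014016) had medians of 11.2 CPM in ÅL and 9.39 CPM in UP males, against 5.11 CPM in SA and 11.3 CPM in ÖL males. Its log2 fold change of 2.12 ± 0.56 (SE, FDR = 0.00298) was 0.47 (FDR = 0.62) without UP male 6, which held 90.9% of the CPM of UP. Neither defensin passed the permutation test (FDR = 0.0769 for defensin-5 and FDR = 0.225 for defensin-1). Gloverin 1 (MCINX009396) and the merged cecropin 4 and 5 gene (MCINX012360) were 1.94 and 1.87 higher on the log2 scale (FDR = 0.00318 and FDR = 0.0105). Gloverin 1 had medians of 2.33 CPM in ÅL and 0.939 CPM in UP males, against 1.15 CPM in SA and 2.7 CPM in ÖL males, and the merged cecropin gene had 3.16 CPM in ÅL and 2.83 CPM in UP males, against 1.84 CPM in SA and 3.7 CPM in ÖL males. The ÖL median was the highest of the 4 for both genes, and neither passed the permutation test (FDR = 0.355 and FDR = 0.391). Without ÅL male 17 the log2 fold changes were 1 for gloverin 1 (FDR = 0.108) and 0.97 for the merged cecropin gene (FDR = 0.168), and without ÅL they were 0.39 and -0.53.

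The same males were high for several peptides. Over the 8 peptides and diapausin, ÅL male 17 was among the 5 highest of the 97 males for 8 of 9 genes, ÅL male 26 and SA male 17 for 7 each, ÖL male 17 for 5 and UP male 2 for 3. The count of called peptides was 4 of 6 with DESeq2 and 2 of 6 with limma-voom. It was 3 of 7 without SA and 1 of 6 without ÅL, settings in which 9.48% and 5.67% of all genes were called. In the males among the largest library totals of their population (the balanced subset) it was 3 of 6, against 12.7% of all genes. In the other males it was 0 of 7, against 2.1% of all genes. The infection state of the butterflies is not among the labels.

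Diapausin (MCINX014799), an antifungal peptide first known from a diapausing beetle, lay between 3.33 and 601 CPM (median 20.4) in ÅL and between 7.04 and 2430 CPM (median 15) in UP males, against 1.4 to 1100 CPM (median 9.31) in SA and 0 to 45.4 CPM (median 8.51) in ÖL males. UP male 2 held 94.1% of the CPM of UP and SA male 27 held 76.4% of that of SA. The landscape difference was 2.55 ± 0.45 (log2, SE, FDR = 8.91e-06), and without UP male 2 it was 0.59 (FDR = 0.352). Without SA male 27 it was 3.55.

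**Figure D3:**
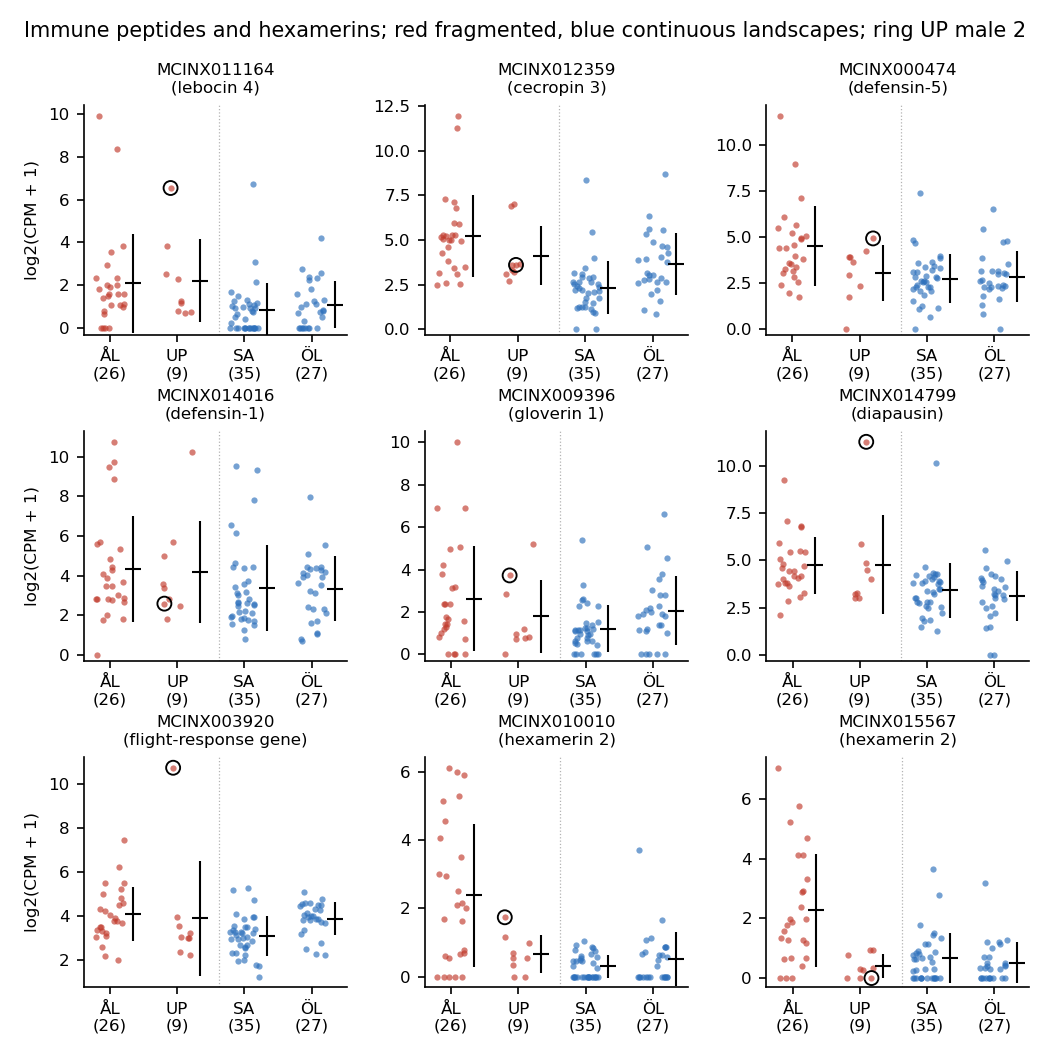
Levels of 5 antimicrobial peptides, diapausin, a flight-response gene and 2 hexamerin 2 genes in single males, as log2(CPM + 1) by population, with the mean and SD as black bars. Red points are ÅL and UP males of fragmented and blue points SA and ÖL males of continuous landscapes; UP male 2, ringed, is far above the other UP males for lebocin 4, diapausin and MCINX003920.

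All of the other 31 flight-response genes were tested. Of these, 14 were higher, none was lower and 17 did not pass the threshold, with a median log2 fold change of 0.37, so that 45.2% were called, against 22.4% of all tested genes. Of the 31 genes 10 were also chosen by the study on these samples. Part of this count rested on UP male 2: without it 9 were higher. Without the 4 males against the sex check 7 were higher, 22.6%, against 19.2% of all genes tested in that setting. The gene with the smallest FDR, MCINX003920 (similar to an uncharacterized fly gene), had medians of 13.5 CPM in ÅL and 7.3 CPM in UP males, against 7.77 CPM in SA and 15.1 CPM in ÖL males. UP male 2 had 1680 CPM, 96.4% of UP, and the log2 fold change of 2.5 ± 0.31 (SE, FDR = 6.29e-10) was 0.19 (FDR = 0.62) without it. MCINX003918, a hypothetical protein with 69.7% of the CPM of UP in that male, had a log2 fold change of 1.25 (FDR = 7.86e-06), and 0.47 (FDR = 0.073) without it.

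The heat shock cognate Hsc70 (MCINX016461), a chaperone of unstressed cells, was called with or without that male. It lay between 45.5 and 404 CPM (median 131) in ÅL and between 45.4 and 344 CPM (median 92) in UP males, against 25.1 to 123 CPM (median 61.3) in SA and 35.2 to 109 CPM (median 61.6) in ÖL males. The landscape difference in log2 was 0.98 ± 0.14 (SE, FDR = 1.37e-07). Alpha esterase 10 (MCINX001574), of a family that detoxifies esters, was 1.71 ± 0.25 higher (log2, SE, FDR = 1.43e-07), and 0.73 (FDR = 0.0143) without UP male 2, which held 77.2% of the CPM of UP.

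Hexamerins are the storage proteins of late larvae. Of this family 4 genes were listed, those that the study named as differing, and 2 passed the filter on low counts. They were picked from samples that include the males described here, so their direction is not independent evidence. Hexamerin 2 (MCINX010010) lay between 0 and 67.7 CPM (median 3.17) in ÅL and between 0 and 2.34 CPM (median 0.471) in UP males, against 0 to 1.08 CPM (median 0) in SA and 0 to 12 CPM (median 0.234) in ÖL males. Only ÅL males were high, with 8 of 26 above 10 CPM, apart from ÖL male 7, which held 53.3% of the CPM of ÖL. On the log2 scale the difference was 2.42 ± 0.46 (SE, FDR = 4.04e-05), and 2.91 without ÖL male 7. ÅL exceeded the continuous mean by 4.44 (log2 fold change, FDR = 1.35e-15), while UP had a log2 fold change of 0.4 (FDR = 0.828).

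The second hexamerin 2 gene (MCINX015567) had medians of 2.58 CPM in ÅL and 0.244 CPM in UP males, against 0.448 CPM in SA and 0.274 CPM in ÖL males. Its landscape difference did not pass the threshold (log2 fold change 1.25 ± 0.6, SE, FDR = 0.116), as ÅL was 3.74 above the continuous mean (FDR = 1.37e-11) and UP had a log2 fold change of -1.24 (FDR = 0.499). The landscape difference passed without the ÅL males of low TMM factor (1.59, FDR = 0.0476), without ÖL male 7 (1.68, FDR = 0.0256), without SA male 14 (1.57, FDR = 0.0366) and with the TMM factor as a covariate (1.42, FDR = 0.0463). The summed level of 6 fat body and haemolymph markers, which include the hexamerins, was 107 to 3650 CPM (median 225) in males from fragmented landscapes, against 74.1 to 983 CPM (median 124) in males from continuous landscapes. Of these 6 markers 5 were chosen by the study for differing on these samples, so the direction of the sum was partly selected.

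Cuticular proteins, which build the exoskeleton, had 15 of 21 genes tested (median log2 fold change 0.88). Of these 11 were higher, 1 lower and 3 not past the threshold, so that 80% were called, against 22.4% of all tested genes. The list was built here by a word search of the study's descriptions, and all 21 stood in its lists of landscape genes. Only genes with a description can enter such a list, and 756 of the 1147 tested genes with one were called. The 22.4% is thus not the fitting background for this and the other word-search lists. Shares of these lists in the refits are set only against all tested genes. The paper counted cuticle proteins over a larger set, of which it reported a minority as differing. CPH43 (MCINX015103) had medians of 13 CPM in ÅL and 2.17 CPM in UP males, against 1.27 CPM in SA and 1.3 CPM in ÖL males, and a log2 fold change of 1.97 ± 0.36 (SE, FDR = 1.7e-05). Cuticular protein 3 of the RR-2 family (MCINX000211) had medians of 6.95 CPM in ÅL and 0.632 CPM in UP males, against 0.378 CPM in SA and 0.734 CPM in ÖL males (log2 fold change 2.42, FDR = 5.87e-05). Both were mainly high in ÅL, which exceeded UP by 2.62 (FDR = 0.0111) and 4.88 (FDR = 0.000108) on the log2 scale. The single lower gene was glycine-rich protein 21 (MCINX002860, log2 fold change -1.99, FDR = 0.000387). Without ÅL the same edgeR test called 0 of 13 tested cuticular proteins, with 2 at an unadjusted P under 0.05. In that setting only 5.67% of all tested genes were called. Without SA the test called 5 of 15 as higher (33.3%, against 9.48% of all genes). Without the 11 ÅL males of low TMM factor it called 8 as higher and 1 as lower (60%, against 17.6%). The 21 genes summed to 2280 to 59700 CPM (median 10200) in males from fragmented landscapes, against 1300 to 25500 CPM (median 5110) in males from continuous landscapes.

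Genes around moulting and juvenile hormones had 4 of 6 tested members higher and 1 lower, all of them chosen by the study on these samples. The share called was 83.3%, against 22.4% of all tested genes. Without the ÅL males of low TMM factor 2 were higher. Of the higher genes 3 were described as ecdysteroid UDP-glucosyltransferases, named after the enzyme that inactivates the hormone by adding a sugar. MCINX000449 lay between 0 and 80 CPM (median 8.58) in ÅL and between 0.471 and 25.8 CPM (median 8.74) in UP males, against 0 to 12.6 CPM (median 0) in SA and 0 to 36 CPM (median 2.39) in ÖL males. It had no read in 2 ÅL and 0 UP males, against 21 SA and 5 ÖL males, and its log2 fold change was 2.9 ± 0.41 (SE, FDR = 4.08e-08). Without SA it was 1.21 (FDR = 0.11). MCINX005524 was 1.2 higher (log2, FDR = 8.33e-07) and MCINX008074 was 0.7 higher (FDR = 0.00595). The fourth higher gene was an ecdysteroid-regulated 16 kDa protein (MCINX011750, log2 fold change 0.7, FDR = 0.000936). The lower gene was a juvenile hormone binding protein, MCINX000446 (log2 fold change -1.06, FDR = 0.0105).

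Of 20 ribosomal protein genes, all tested, 15 were higher, 2 lower and 3 not past the threshold (median log2 fold change 0.5). The share called was 85%, against 22.4% of all tested genes, and 19 of the 20 were chosen by the study on these samples. Without the males against the sex check 14 were higher and 1 lower. L12 (MCINX014336) had medians of 647 CPM in ÅL and 797 CPM in UP males, against 258 CPM in SA and 466 CPM in ÖL males (log2 fold change 1.11, FDR = 5.83e-07). L30 (MCINX001328) had medians of 140 CPM in ÅL and 79.3 CPM in UP males, against 60.2 CPM in SA and 67.1 CPM in ÖL males (log2 fold change 0.81, FDR = 5.46e-08). The count of higher genes was 10 with library size alone, 9 without the ÅL males of low TMM factor, 7 without SA and 3 without ÅL. Without SA 40% of the list was called, against 9.48% of all tested genes, and without ÅL 15%, against 5.67%. S5 (MCINX007504), 0.78 higher (FDR = 6.17e-05), lost its call without the ÅL males of low TMM factor (log2 fold change 0.24, FDR = 0.109).

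The aminoacyl-tRNA synthetases, which charge tRNAs with amino acids, had 5 of 8 tested genes higher and 1 lower (0 lower without the males against the sex check). The share called was 75%, against 22.4% of all tested genes, and all 10 of the list were chosen by the study on these samples. The cytoplasmic asparaginyl-tRNA synthetase (MCINX006960) had medians of 54.1 CPM in ÅL and 27.2 CPM in UP males, against 19.5 CPM in SA and 20.4 CPM in ÖL males (log2 fold change 1.13 ± 0.14, SE, FDR = 1.7e-09). Threonyl-tRNA synthetase (MCINX008663) had medians of 28.2 CPM in ÅL and 24.9 CPM in UP males, against 8.68 CPM in SA and 10 CPM in ÖL males (log2 fold change 1.15 ± 0.21, SE, FDR = 2e-05). The count of higher genes was 3 without SA and 3 without ÅL (37.5% in each, against 9.48% and 5.67% of all tested genes). Of 9 genes for protein export through the endoplasmic reticulum, 6 were called higher and 3 were not called, among them the Sec61 beta subunit (MCINX011562, log2 fold change 0.51, FDR = 0.000574) and 4 subunits of the translocon-associated complex, with log2 fold changes between 0.36 and 0.59. Outside ribophorin II these were small, and with library size alone 3 of the 9 were called, as without the males against the sex check. In the main fit 66.7% of the 9 were called, against 22.4% of all tested genes and 756 of the 1147 tested genes with a description. Of the 9 genes 7 were chosen by the study on these samples.

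Genes of mitochondrial energy metabolism went both ways. Of 12 tested, 6 were higher, 4 lower and 2 not past the threshold, with a median log2 fold change of 0.11. The share called was 83.3%, against 22.4% of all tested genes. Besides coupling factor 6, the ATP synthase gamma chain (MCINX015004) was higher, with medians of 11700 CPM in ÅL and 6550 CPM in UP males, against 5120 CPM in SA and 5630 CPM in ÖL males (log2 fold change 0.78 ± 0.15, SE, FDR = 4.44e-05). The 3 largest of the lower ones were the complex I, complex II and ATP synthase beta genes of low level described above. One higher member, adenylosuccinate lyase (MCINX015735, log2 fold change 0.53, FDR = 0.0034), entered the list by a word of its name and makes purines. All 15 genes of this list were chosen by the study on these samples. The summed level of 7 flight muscle markers overlapped between landscape types, at 1140 to 4650 CPM (median 2070) in males from fragmented landscapes, against 1210 to 3130 CPM (median 1900) in males from continuous landscapes. Of 6 tested muscle markers 3 were higher, among them troponin C (MCINX008221, log2 fold change 0.56, FDR = 0.00305), and kettin (MCINX003014, -0.45, FDR = 0.000325) was lower. Thus 66.7% were called, against 22.4% of all tested genes and 756 of the 1147 tested genes with a description. Of the 7 markers 6 were chosen by the study on these samples, and the count of higher markers was 0 with library size alone (edgeR, 5 markers at an unadjusted P under 0.05 in either direction) and 1 without the ÅL males of low TMM factor. The part of muscle content in these results was not tested. Without SA the energy list had 1 higher and 3 lower genes, as it did without ÅL. These were 36.4% and 33.3% of its tested genes, against 9.48% and 5.67% of all tested genes.

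Of 23 tested detoxification genes, 14 were higher and 6 lower (87% called, against 22.4% of all tested genes). Of the 27 in the list 25 were chosen by the study on these samples. Antennal esterase CXE20 (MCINX014238) had medians of 19.7 CPM in ÅL and 21.5 CPM in UP males, against 5.37 CPM in SA and 8.67 CPM in ÖL males (log2 fold change 1.28 ± 0.21, SE, FDR = 2.34e-06). Glutathione S-transferase omega 3 (MCINX002039, log2 fold change -1.18, FDR = 0.000174) and cytochrome P450 333B11 (MCINX015598, -1.37, FDR = 0.0028) were lower. Some members entered through their names as phosphodiesterases rather than as enzymes of foreign compounds. Of 14 tested lipid genes 5 were higher and 5 lower (71.4% called, against 22.4% of all tested genes), and 16 of the 17 listed were chosen by the study on these samples. Without SA 2 of 13 were higher and none lower (15.4%, against 9.48% of all tested genes). Pancreatic lipase-related protein 2 (MCINX005023) had medians of 4.87 CPM in ÅL and 5.68 CPM in UP males, against 0.853 CPM in SA and 3.52 CPM in ÖL males (log2 fold change 1.35 ± 0.21, SE, FDR = 3.69e-07). Without SA its log2 fold change was 0.39 (FDR = 0.22).

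Of 9 splicing genes 4 were higher and none lower (44.4% called), and of 14 tested zinc finger genes 6 were higher and 2 lower (57.1%), against 22.4% of all tested genes. Of the 1147 tested genes with a description 756 were called, a larger share than in either list. All 9 splicing genes, 16 of the 19 listed zinc finger genes and all 4 mobile element genes were chosen by the study on these samples. The splicing count was 3 without the males against the sex check, 2 with library size alone, 2 without SA and 0 without ÅL (edgeR, 2 at an unadjusted P under 0.05). Without SA this was 22.2% of the list, against 9.48% of all tested genes, and without ÅL 5.67% of all tested genes were called. Splicing factor 3 subunit 1 (MCINX008780) was 0.56 higher (log2, FDR = 3.66e-05), and a zinc finger gene (MCINX014624) had a log2 fold change of -1.21 (FDR = 6.09e-05), with medians of 3.53 CPM in ÅL and 7.3 CPM in UP males, against 17 CPM in SA and 5.92 CPM in ÖL males. Of the mobile element genes, a piggyBac-derived gene (MCINX011648, log2 fold change 0.67, FDR = 0.00455) was higher and a Pro-Pol polyprotein gene (MCINX005081, -0.68, FDR = 0.00252) lower.

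**Figure D4:**
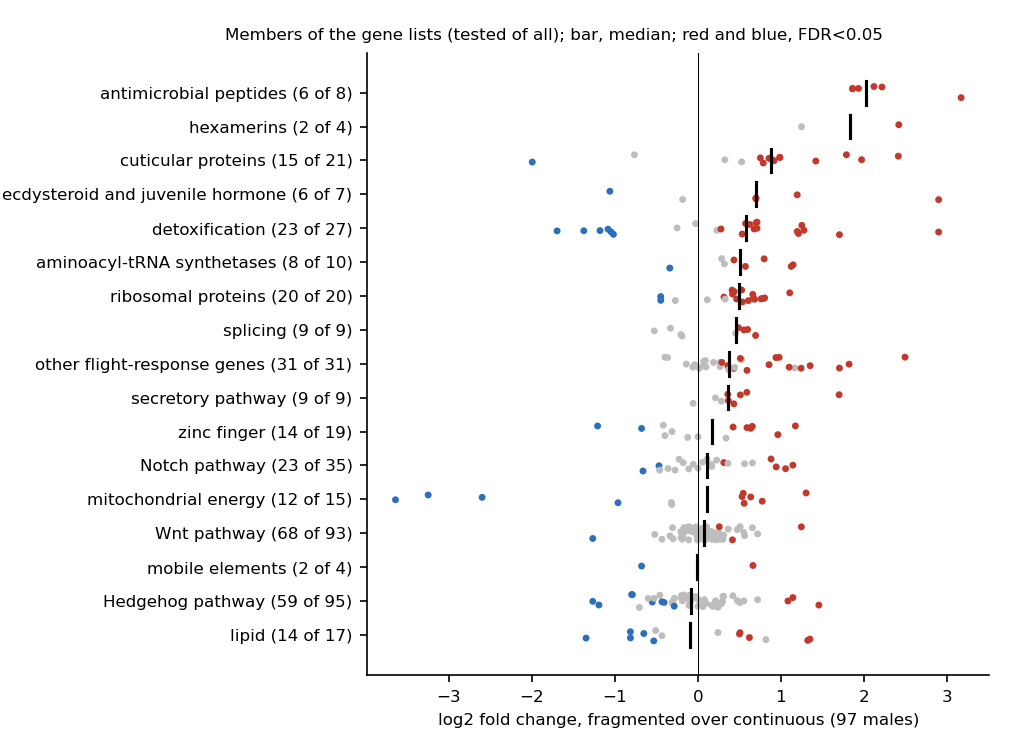
Log2 fold change, fragmented over continuous landscapes in 97 males, for each tested member of 17 gene lists, with the numbers tested and in the list in brackets and the median as a black bar. Red and blue points passed FDR<0.05; all 6 tested antimicrobial peptides lie between 1.86 and 3.17, and the lists of the 3 signalling pathways are centred near 0.

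The genes matched to the Wnt, Notch and Hedgehog signalling pathways of Drosophila were listed by sequence similarity and not by expression. The paper also reported part of each pathway list as differing between landscape types, on samples that include the males described here. Of 68 tested Wnt genes 3 were higher and 1 lower (5.88% called). Of 23 Notch genes 5 were higher and 2 lower (30.4%; 4 and 3 without the males against the sex check), and of 59 Hedgehog genes 3 were higher and 8 lower (18.6%). The background over all genes was 22.4%, and the medians were 0.075 for Wnt, 0.11 for Notch and -0.086 for Hedgehog genes.

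A gene matched to the Wnt receptor frizzled 3 (MCINX012998) had the smallest FDR of the Wnt list. It lay between 3.61 and 47.3 CPM (median 12.9) in ÅL and between 3.46 and 15.5 CPM (median 7.36) in UP males, against 0 to 8.52 CPM (median 3.25) in SA and 1.23 to 9.41 CPM (median 5.14) in ÖL males. More than 10 CPM were found in 18 ÅL males and 1 UP male and in no SA or ÖL male, and the log2 fold change was 1.25 ± 0.17 (SE, FDR = 9.28e-09). Hedgehog itself (MCINX007389), a secreted signal that patterns epidermis in flies, had medians of 4.21 CPM in ÅL and 4.71 CPM in UP males, against 2.38 CPM in SA and 1.52 CPM in ÖL males (log2 fold change 1.09 ± 0.25, SE, FDR = 0.000829). Groucho (MCINX012093), a corepressor of Notch target genes in flies, was highest in ÅL, with medians of 36.5 CPM in ÅL and 4.39 CPM in UP males, against 11.8 CPM in SA and 6.9 CPM in ÖL males. The fitted log2 fold change was 1.06 ± 0.26 (SE, FDR = 0.00155), and -0.26 without ÅL. ÅL exceeded UP by 2.63 (FDR = 0.000591). The gene matched to megalin (MCINX005137), a lipoprotein receptor, was lower (log2 fold change -1.19, FDR = 0.00121).

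Females were compared in a fit of all 174 libraries with a mean for each population and sex, in which 8976 genes were tested. Males differed between landscape types at 2121 genes (23.6%), 1241 higher (13.8%) and 880 lower (9.8%) in fragmented landscapes, and females at 1999 (22.3%), 1103 higher (12.3%) and 896 lower (9.98%). These comparisons share no sample. Both called 1037 genes, 48.9% of the male and 51.9% of the female list, and 1034 of them had the same direction. Of the 2121 genes called in males, 1983 (93.5%) had the same sign in females. Across the 8976 genes, which are not independent replicates, the log2 fold changes of males and females correlated with r = 0.711 (Spearman's rho 0.66), as a description of genes measured in the same 4 populations.

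The test of the difference itself found 32 genes (0.357% of 8976) at which the landscape difference of males departed from that of females, 20 with a larger and 12 with a smaller value in males. At an unadjusted P under 0.05 there were 835 genes (9.3%). limma-voom called 0 genes, with 805 at an unadjusted P under 0.05, and DESeq2 called 48. Without UP male 2 the edgeR count was 7, without ÖL male 7 it was 71, and without the butterflies against the sex check it was 9.

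For 4 of the genes named here the difference between the sexes was smaller and not called without 1 butterfly. Hexamerin 2 (MCINX010010) had a log2 fold change of 2.4 in males and 6.14 in females, a difference of -3.74 (males minus females, FDR = 0.0334). UP female 8 held 98.2% of the CPM of UP females, with 1110 CPM, while the median of UP females was 1.03 CPM, and without it the difference was -0.94 (FDR = 0.811). Diapausin (MCINX014799) had a difference of 2.63 (FDR = 0.0385), and 0.69 (FDR = 0.833) without UP male 2. MCINX014650, with no description, had a difference of 2.71 (FDR = 0.0173), and 0.71 (FDR = 0.806) without UP male 2, which held 94.4% of its CPM in UP males. For alpha esterase 10 (MCINX001574) the difference was 1.47 (FDR = 0.0334), and 0.5 (FDR = 0.746) without UP male 2.

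MCINX014308, also without a description and below the filter in the males alone, passed the threshold in each of the edgeR fits run without 1 butterfly, with an FDR of 0.0474 without UP male 2. Its difference was 4.15 (males minus females, FDR = 0.00201), with a log2 fold change of 2.5 in males and -1.65 in females, and FDR = 0.363 with limma-voom. Its medians were 0 CPM in the males of all 4 populations, and 0.317 CPM in ÅL and 0.147 CPM in UP females, against 0.729 CPM in SA and 1.72 CPM in ÖL females. The landscape difference of MCINX008827 was 0.18 in males and 1.88 in females, and that of MCINX009868 was -0.17 in males and 1.53 in females. For both the difference was -1.7 (FDR = 0.0412). Without UP male 2 it was -1.65 for MCINX008827 (FDR = 0.105) and -1.68 for MCINX009868 (FDR = 0.09). Without the butterflies against the sex check it was -1.03 for MCINX008827 (FDR = 0.361) and -1.74 for MCINX009868 (FDR = 0.0786).

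**Figure D5:**
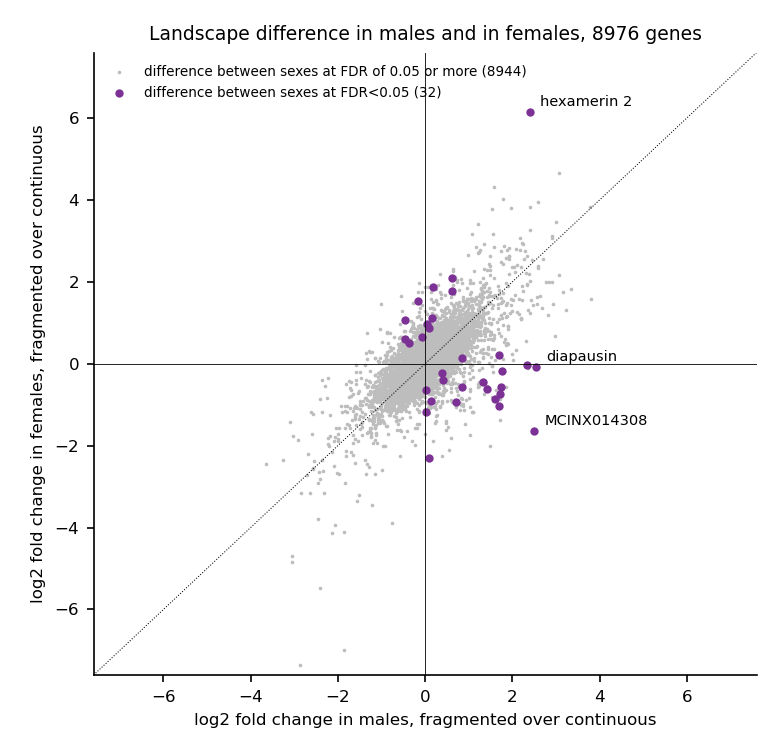
Log2 fold change, fragmented over continuous landscapes, in males (horizontal axis) and females (vertical axis) for 8976 genes of the fit of 174 butterflies; the dotted line marks equal values. The 32 genes at which the sexes differed at FDR<0.05 are purple, and hexamerin 2 has the largest value in females among them.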

How the data were processed

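Thorax RNA of 174 butterflies was read from polyA-anchored 3′ libraries, and the 97 libraries labelled Male were analysed here. The authors trimmed the reads and aligned them with TopHat2 2.0.5 after base calling with CASAVA 1.7, per the study's methods and the submitters' processing notes, and deposited raw counts per gene model for each sample. The authors' normalized table of the series was not used. Sequencing site, read length and library pool are not among the labels, and their part in the results was not tested.

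Counts were fitted in edgeR 4.0.16 (quasi-likelihood test, R 4.3.3) with 1 mean per population, TMM factors and filterByExpr at a minimum count of 10, with Benjamini-Hochberg adjustment over all tested genes (FDR). The SE of a log2 fold change is its size divided by the square root of the F statistic. Levels are counts scaled to a library of 1000000 (CPM) scaled by TMM. Single-gene permutation tests used 100000 permutations of log2(CPM + 1). Females entered only a fit of all 174 libraries with a mean for each population and sex, in which log2 fold changes and CPM of both sexes were scaled together. Library totals set the precision of low levels, and intervals were not computed for them. The fits were tested on simulated data.

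Genes were named by a rule: the 6 largest differences in each direction among genes with ordered population means and average log2 CPM above 1, the 8 largest with a description, the 3 smallest FDR values, the 3 largest sex differences in each direction and up to 4 members of each list. A few further list members are named after their values were seen. Descriptions came from the study's supplementary tables, and 756 of the 1147 tested genes with a description were called. Gene lists were built by word searches, so that detoxification also took phosphodiesterases and mitochondrial energy adenylosuccinate lyase. The haemocyte marker list had 0 genes. The members and lists were chosen with earlier results of these data known. Alternatives were limma-voom 3.58.1, DESeq2 1.42.0, other scalings, filters and covariates, thinned counts, and fits without single males, populations or males against the sex check. Fits without each butterfly that dominated a named gene in the comparison of sexes were chosen after seeing the data.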

Additional observations from a re-analysis of the deposited data

Results flagged for a closer look

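Among the 9 UP males, 12 of 92 values examined, gene levels as log2(CPM + 1), had 1 male whose gap to the nearest other exceeded Dixon's critical share of the range, a size that chance gives in about 1 in 20 groups. UP male 2 accounted for 5 of them: diapausin (MCINX014799) at 2430 CPM, MCINX003920 at 1680 CPM, MCINX003918 at 494 CPM, Hsc70 (MCINX016461) at 344 CPM and MCINX014650 at 326 CPM. This male was also against the sex check. UP male 6 was highest for defensin-1 (MCINX014016, 1190 CPM), CG6287 (MCINX001696, 166 CPM) and hedgehog (MCINX007389, 13.4 CPM). UP male 1 was highest for succinate dehydrogenase subunit D (MCINX005298, 3.45 CPM) and hexamerin 4 (MCINX015572, 0.848 CPM), and UP male 8 for the 24 kDa complex I subunit (MCINX005301, 3.16 CPM). UP male 5 was lowest for the gene matched to megalin (MCINX005137, 0 CPM).

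The landscape difference departed between males and females at 32 genes by the edgeR test of that difference. Of the genes named from it, the male minus female log2 difference was 4.15 for MCINX014308, 2.71 for MCINX014650, 2.63 for diapausin (MCINX014799), -1.7 for MCINX008827, -1.7 for MCINX009868 and -3.74 for hexamerin 2 (MCINX010010).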

How the results depend on the processing

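The count of 1780 genes was 1136 with counts thinned to a common total and 1012 by permutation and likelihood ratio tests with ordered means. It was 1006 at FDR<0.01, 712 without SA, 500 with at least 10 counts in every male and 436 without ÅL. In the males of a balanced subset it was 1021, and 179 in the males outside it, which held only 2 UP males. The labels do not name the study's balanced subset, so a subset was rebuilt from the largest count totals of each population over both sexes. Leaving out single males gave 1602 to 1834 genes. These fits covered each UP male and each male that dominated a named gene in its population, and the other males were not left out. The split was 922 higher and 891 lower with limma-voom, against 1065 and 715. ÅL against UP gave 434 genes, and 662 with DESeq2. UP against the continuous populations gave 718 without a filter on low counts, 236 without males against the sex check and 219 to 413 without single UP males. The sex difference of 32 genes was 0 with limma-voom, 70 without a filter and 73 without ÅL butterflies of low TMM factor. It was 9 without butterflies against the sex check, 2 at FDR<0.01 and 7 to 71 without single butterflies that dominated a named gene.

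Of 79 named genes called, 59 lost their call in the males outside the balanced subset, 39 without ÅL and 26 without SA. Among these 79, log2 fold changes turned negative for MCINX000474 (-0.069) and MCINX012093 (-0.262) without ÅL and for MCINX005676 without SA (-0.01). In the males outside the balanced subset they did so for MCINX005508 (-0.088), MCINX005676 (-0.02), MCINX014799 (-0.60) and MCINX014650 (-0.87). The merged cecropin gene (MCINX012360), which is not among the 79, had a log2 fold change of -0.526 without ÅL. MCINX014650 was also negative with DESeq2 (-0.71), without UP male 2 (-0.31) and without males against the sex check (-0.32), and lay between -0.31 and 1.88 without single males. The cause was not tested. No paired analysis was possible because replicate numbers were given in accession order and each male was a separate individual.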

Other observations

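The summed level of 6 testis or sperm markers was 4.88 to 30 CPM (median 18.1) in males from fragmented landscapes, against 5.27 to 74.6 CPM (median 25.7) in males from continuous landscapes. The 4 gut markers summed to 0.916 to 14.3 CPM (median 6.56) in males from fragmented landscapes, against 0 to 14.7 CPM (median 5.76) in males from continuous landscapes. Of the 6 testis or sperm markers 3 were chosen by the study on these samples, as were all 4 gut markers. In each list only 2 were abundant enough to be tested.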
